A study of Mus musculus with 6 samples.

Results

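Serine, one-carbon and asparagine synthesis is described here by 10 enzyme genes, all of which were found by symbol among the 14408 genes of the deposited table. They are Phgdh, Psat1 and Psph of serine synthesis, Shmt2, Mthfd2, Mthfd1l and Aldh1l2 of the mitochondrial folate pathway, Shmt1 and Mthfd1 of the cytosolic folate pathway, and the asparagine synthetase gene Asns. The genes were chosen by their FPKM differences between L-proline and PBS in these same libraries. Their values in that comparison are therefore a description and are not evidence for it. RNA labelled as left ventricle came from male C57BL/6J mice, 8 weeks old when the protocol began. Every mouse had a high-fat diet and the nitric oxide synthase inhibitor L-NAME at 0.5 g/L in the drinking water for 8 to 12 weeks, which models HFpEF, heart failure in which the ejection fraction is preserved. The mice then had daily intraperitoneal L-proline at 300 mg/kg, or PBS as vehicle, over 4 to 8 weeks, and 3 libraries represent each of these 2 groups. No group without the diet and L-NAME is part of the comparison. The labels do not say that each library is 1 animal, so the spread between libraries may be partly technical.

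Serine is made from the glycolytic intermediate 3-phosphoglycerate in a short chain of reactions. Serine hydroxymethyltransferases then move a carbon unit from serine to tetrahydrofolate, giving glycine. Parallel sets of folate enzymes in mitochondria and cytosol pass this unit on, and formate carries it between the compartments for the synthesis of purines, thymidylate and methionine. Several of these genes, and Asns, are textbook targets of the transcription factor ATF4, which is translated more when amino acids are short or the endoplasmic reticulum is under stress.

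Levels are given as FPKM, fragments scaled to the length of the gene and to the total of the library. Comparisons of level between different genes therefore depend on the gene lengths used for the deposited values. Library totals recovered from these values ran from 34990473 to 37498030 fragments, and each value of the 10 genes rests on at least 268 fragments. Heart muscle transcripts were nearly absent, although the RNA was labelled as left ventricle. Of 11 cardiomyocyte markers 6 were listed, and Myh6, Myl3, Actc1, Pln and Nppa were not. Myh7, Myl2, Tnni3, Ttn and Ryr2 stayed close to 0. Tnnt2, cardiac troponin T, was the exception, at 31.4 to 32.9 FPKM in PBS and 13.6 to 16.3 in L-proline. These are not the levels of whole ventricle, and why they differ from the label was not tested. The median level was 108.8 FPKM over 6 listed fibroblast markers and 27.1 over 8 listed pericyte and smooth muscle markers. It was 33.9 over 10 proliferating cell markers, 2.98 over 4 listed macrophage markers and 0.0465 over 4 listed endothelial markers. Single markers of a list differed widely. Mean levels ran from 6.91 (Pdgfra) to 1525 FPKM (Col3a1) among fibroblast markers. Among pericyte and smooth muscle markers they ran from 0.0227 (Myh11) to 838 FPKM (Acta2). In such bulk RNA, fewer cells of a type and less RNA per cell cannot be told apart.

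The asparagine and serine branches were higher with L-proline, the mitochondrial folate genes moved in opposite directions, and the cytosolic folate genes did not pass the test. Asns was 3.20 times and Mthfd2 3.74 times as high as in PBS by the ratio of group means, while Mthfd1l was at 0.677 of its PBS level. Using limma on log2(FPKM + 1) over 10500 genes with a mean of at least 1 FPKM, and calling a gene at a Benjamini-Hochberg adjusted p under 0.05, 6 of the 10 genes rose, 1 fell and 3 did not pass. Among all tested genes 7.50% rose and 12.1% fell, 19.6% in all (788 and 1268 genes, or 993 and 919 with median-of-ratios scaling and 1079 and 1015 with quantile normalization). Nothing is read from the difference, since the genes were chosen with this contrast known. The median log2 fold change was 0.61 over the 10 genes and -0.06 over all tested genes. The 3 L-proline values all lay above the 3 PBS values for 7 of the genes and all below them for 1, against 16.0% and 24.0% of tested genes, 40.1% in all.

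**Figure D1:**
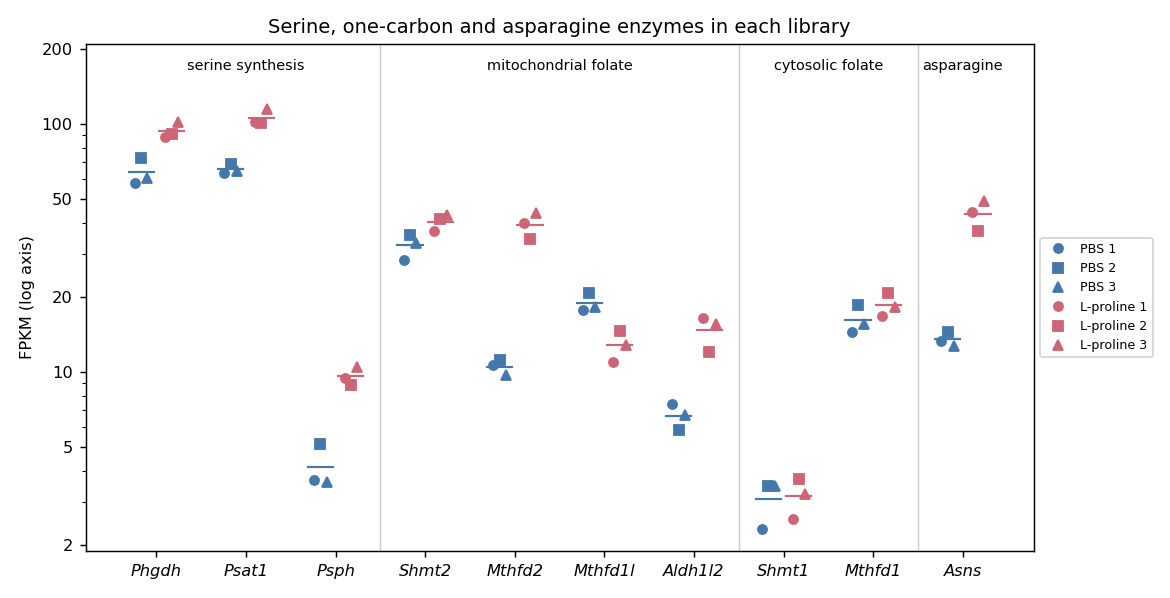
FPKM of the 10 enzyme genes in each library on a log axis, PBS in blue and L-proline in red, with circle, square and triangle for replicates 1, 2 and 3 and a line at each group mean. The groups are separate for all genes except Shmt1 and Mthfd1, and Mthfd1l is the gene whose L-proline libraries lie below PBS.

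Asns encodes the enzyme that makes asparagine from aspartate with the amide nitrogen of glutamine. It measured 13.4, 14.5 and 12.8 FPKM in PBS 1, 2 and 3 and 44.3, 36.9 and 48.8 in L-proline 1, 2 and 3. The lowest L-proline library was thus still far above the highest PBS library. The means were 13.6 ± 0.901 and 43.4 ± 6.01 FPKM (SD, n = 3), and the log2 fold change was 1.60 ± 0.11 (standard error, as for all fold changes below).

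The serine synthesis genes rose by smaller amounts, all 3 with separate groups. Phgdh, the phosphoglycerate dehydrogenase that commits 3-phosphoglycerate to serine, stood at 57.8, 72.8 and 60.7 FPKM in PBS and at 88.4, 90.8 and 101.9 in L-proline. PBS 2 was the highest control, and the log2 fold change was 0.55 ± 0.10. Psat1, the aminotransferase of the second step, read 63.5, 69.1 and 64.8 FPKM in PBS against 102.0, 100.6 and 114.9 in L-proline. These groups lay far apart, with a log2 fold change of 0.68 ± 0.08. Psph, the phosphatase that releases serine, was the least abundant of the chain, with 3.66, 5.15 and 3.61 FPKM in PBS and 9.42, 8.90 and 10.5 in L-proline. Its log2 fold change, 1.06 ± 0.13, was above those of the other two. Psat1 and Phgdh were expressed at nearly the same level in every library, with a Psat1 to Phgdh ratio of 0.948 to 1.10 in PBS and 1.11 to 1.15 in L-proline. The Psph to Psat1 ratio was 0.0626 ± 0.0103 in PBS and 0.0907 ± 0.00205 in L-proline (SD, n = 3), again without overlap. Psph was thus higher relative to its upstream enzyme but remained far below it.

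Of the 4 mitochondrial folate genes, Mthfd2 and Aldh1l2 rose, Mthfd1l fell, and Shmt2 did not pass. Mthfd2 encodes the mitochondrial methylenetetrahydrofolate dehydrogenase and cyclohydrolase, an enzyme known to be high in embryonic and proliferating cells. Its levels were 10.7, 11.1 and 9.68 FPKM in PBS and 39.7, 34.4 and 43.5 in L-proline, with a log2 fold change of 1.80 ± 0.10. No other of the 10 genes had a larger fold change. Aldh1l2, which oxidises formyl-tetrahydrofolate in mitochondria and yields NADPH, had 7.44, 5.86 and 6.71 FPKM in PBS and 16.5, 12.0 and 15.6 in L-proline (log2 fold change 1.03 ± 0.13). L-proline 2 was the lowest treated library for both, and both groups were still apart.

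Mthfd1l, the mitochondrial enzyme that releases formate from formyl-tetrahydrofolate, went the other way. It measured 17.7, 20.9 and 18.2 FPKM in PBS and 10.97, 14.7 and 12.8 in L-proline, so that every treated library lay below every control. The log2 fold change was -0.53 ± 0.11. This call was lost without PBS 3, where the fold change was -0.56 and the limma adjusted p = 0.0545 (adjusted p = 0.00707 to 0.0545 over the alternatives). Shmt2, the mitochondrial serine hydroxymethyltransferase, had 28.3, 35.6 and 33.3 FPKM in PBS and 37.1, 41.3 and 42.9 in L-proline. These groups did not overlap, but PBS 2 and L-proline 1 differed by less than the spread within either group. The log2 fold change of 0.32 ± 0.10 missed the threshold, and it passed with median-of-ratios scaling, with quantile normalization, with replicate number as a block and without L-proline 1.

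The cytosolic enzymes overlapped between groups. Mthfd1, the trifunctional enzyme that carries out the matching cytosolic reactions, had 14.5, 18.7 and 15.6 FPKM in PBS and 16.8, 20.9 and 18.3 in L-proline (log2 fold change 0.19 ± 0.12). Shmt1, the cytosolic serine hydroxymethyltransferase, was the lowest of all 10 genes, with 2.34, 3.46 and 3.47 FPKM in PBS and 2.56, 3.69 and 3.21 in L-proline (log2 fold change 0.03 ± 0.15). Its fold change took the opposite sign without PBS 1 and without L-proline 2.

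Compared within each library, the mean of the mitochondrial genes stood further above that of the cytosolic genes with L-proline, but the single steps differed in size and in direction. The mean log2(FPKM + 1) of the 4 mitochondrial genes exceeded that of the 2 cytosolic genes by 1.08, 0.78 and 0.83 in PBS 1, 2 and 3 and by 1.59, 1.21 and 1.52 in L-proline 1, 2 and 3. The group means were 0.90 ± 0.16 and 1.44 ± 0.20 (SD, n = 3), a shift of 0.55 on the log2 scale with no overlap. The shift is 1.61 for Mthfd2 minus Mthfd1 alone and 0.29 for Shmt2 minus Shmt1 alone, and the ratio of Mthfd1l to Mthfd1 went the other way, from 1.17 ± 0.0520 to 0.685 ± 0.0266 (SD, n = 3), so the average does not stand for any single step. Because the comparison was chosen with its outcome known, no test was made of it.

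The ratio of Mthfd2 to Mthfd1 was 0.735, 0.595 and 0.622 in PBS and 2.37, 1.64 and 2.38 in L-proline, so the mitochondrial transcript passed from below the cytosolic one to above it. Mthfd1l to Mthfd1 went through 1 in the opposite sense, from 1.22, 1.12 and 1.17 to 0.655, 0.702 and 0.700. Where a ratio stands against 1 depends on the gene lengths used, whereas its relative change between the groups does not. The Shmt2 to Shmt1 ratio was 10.6 ± 1.30 in PBS and 13.02 ± 1.69 in L-proline (SD, n = 3), and the groups overlapped. Mitochondrial serine hydroxymethyltransferase was thus the more abundant transcript in all 6 libraries. Aldh1l1, the cytosolic counterpart of Aldh1l2, is outside the 10 genes, and the Aldh1l2 to Aldh1l1 ratio was 1.16 ± 0.134 in PBS and 2.79 ± 0.796 in L-proline.

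Within the mitochondrial route itself, the balance of Mthfd2 to Mthfd1l was 0.602, 0.533 and 0.532 in PBS and 3.62, 2.34 and 3.40 in L-proline. The mean ratio was 5.62 times as high with L-proline. Since Mthfd2 rose and Mthfd1l fell, their ratio had to shift more than either gene alone. These enzymes act in sequence, Mthfd2 making the formyl-tetrahydrofolate from which Mthfd1l releases formate. Mthfd2l, a related dehydrogenase gene, had 5.10 ± 0.371 and 4.01 ± 0.458 FPKM (SD, n = 3) and did not pass (limma adjusted p = 0.0760). The ratio of Mthfd2 to Mthfd2l was 2.07 ± 0.274 in PBS and 9.88 ± 1.85 in L-proline.

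**Figure D2:**
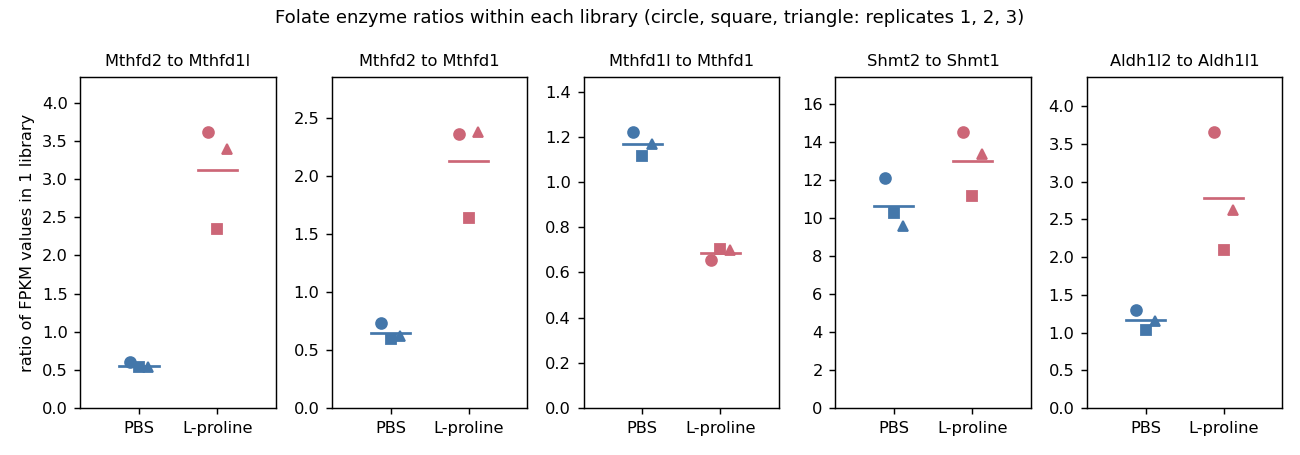
Ratio of FPKM values of named gene pairs within each library, from 0 on each axis, for PBS in blue and L-proline in red, with a line at the group mean. Mthfd2 to Mthfd1l rises from at most 0.602 to at least 2.34, Mthfd1l to Mthfd1 drops from at least 1.12 to at most 0.702, and Shmt2 to Shmt1 overlaps.

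The order of the levels changed with these shifts. In PBS it ran Psat1, Phgdh, Shmt2, Mthfd1l, Mthfd1, Asns, Mthfd2, Aldh1l2, Psph and Shmt1. The ranges of Psat1 and Phgdh, of Mthfd1l and Mthfd1, and of Mthfd1 and Asns overlapped, and other neighbours were apart. In L-proline Psat1 and Phgdh stayed at the top with overlapping ranges, and Asns, Shmt2 and Mthfd2 followed with means of 43.4, 40.4 and 39.2 FPKM that also overlapped. Mthfd1 came next, Aldh1l2 and Mthfd1l overlapped at 14.7 and 12.8, and Psph and Shmt1 remained last. Phgdh and Psat1 lay above 92.3% and 93.0% of tested genes by mean level, and Shmt1 above 16.9%.

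Libraries within a group did not deviate together for all 10 genes. PBS 2 was the highest control for 8 of the genes and the lowest for Aldh1l2. In the L-proline group, replicate 3 was highest for 6 genes and lowest for 0. L-proline 2 split the genes: it was lowest for Psat1, Psph, Mthfd2, Aldh1l2 and Asns and highest for Mthfd1l, Shmt1 and Mthfd1. Asns deviated by -0.22 and Mthfd2 by -0.18 from the group mean there on the log2 scale, while Mthfd1l deviated by 0.19. The 2 genes with the largest increases were thus lowest, and the gene that fell was highest, in this 1 treated library. In L-proline 3 Asns (0.18) and Mthfd2 (0.15) were highest, with Mthfd1l at 0.01. In L-proline 1 Mthfd1l was lowest (-0.20), with Asns at 0.04 and Mthfd2 at 0.02. In PBS 2 Asns, Mthfd2 and Mthfd1l were all highest. Gene length moved with some of these deviations, and its part was not tested. The 2623 longest tested genes (5809 to 59479 bases), which include Aldh1l2 with a recovered length of 9225 bases, had a median deviation of -0.07 in PBS 2 and 0.09 in L-proline 1. The 2625 shortest (204 to 2158 bases) had 0.06 and -0.07. The longest and shortest genes had median log2 fold changes of -0.12 and 0.02 between the groups.

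**Figure D3:**
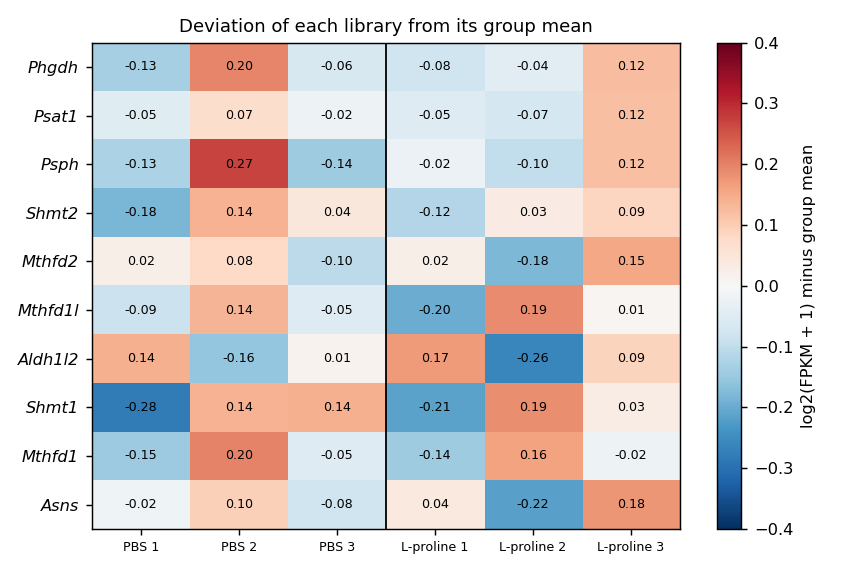
Deviation of log2(FPKM + 1) from the group mean for each of the 10 genes (rows) in each library (columns), red above and blue below the mean. L-proline 2 is below its group mean for Asns (-0.22), Mthfd2 (-0.18) and Aldh1l2 (-0.26) and above it for Mthfd1l (0.19), Shmt1 (0.19) and Mthfd1 (0.16).

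Promoters were examined because Asns, Psat1 and Mthfd2 rose while Mthfd1l fell. RefSeq start sites on GRCm38.p6, with 250 bases before and 50 after the start, were at hand for 9 of the 10 genes and gave 10 windows, since Psat1 has 2 starts. The motifs searched, on both strands, were TGATGNAA, the core of the composite C/EBP-ATF element that ATF4 is known to bind, its looser form TGNTGNAA, which contains every match of the first, CCAAT, bound by the factor NF-Y, and CACGTG, the E-box bound by MYC. The windows of these 4 genes, for Psat1 that of the first start only, are shown 5′ to 3′ along the gene's own strand, with capitals for matches to TGNTGNAA or to CCAAT on either strand.
Asns (chr6:7693160-7693459, minus strand): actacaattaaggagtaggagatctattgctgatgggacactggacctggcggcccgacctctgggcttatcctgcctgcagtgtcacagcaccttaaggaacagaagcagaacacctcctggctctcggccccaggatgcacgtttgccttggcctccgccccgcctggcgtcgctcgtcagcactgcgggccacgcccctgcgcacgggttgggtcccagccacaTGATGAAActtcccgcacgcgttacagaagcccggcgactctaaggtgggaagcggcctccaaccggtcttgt
Psat1, first start (chr19:15925010-15925309, minus strand): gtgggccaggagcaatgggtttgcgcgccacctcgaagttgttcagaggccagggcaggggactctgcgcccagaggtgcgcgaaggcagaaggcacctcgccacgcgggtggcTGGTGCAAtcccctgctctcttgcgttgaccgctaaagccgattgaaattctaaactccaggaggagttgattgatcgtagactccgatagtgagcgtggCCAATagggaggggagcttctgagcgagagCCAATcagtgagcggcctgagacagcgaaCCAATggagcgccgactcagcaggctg
Mthfd2 (chr6:83317555-83317854, minus strand): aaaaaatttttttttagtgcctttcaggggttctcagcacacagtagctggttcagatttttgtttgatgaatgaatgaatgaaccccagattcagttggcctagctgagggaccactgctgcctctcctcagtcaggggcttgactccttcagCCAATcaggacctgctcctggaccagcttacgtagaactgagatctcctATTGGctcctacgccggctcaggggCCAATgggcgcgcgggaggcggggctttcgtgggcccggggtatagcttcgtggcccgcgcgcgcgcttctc
Mthfd1l (chr10:3972825-3973124, plus strand): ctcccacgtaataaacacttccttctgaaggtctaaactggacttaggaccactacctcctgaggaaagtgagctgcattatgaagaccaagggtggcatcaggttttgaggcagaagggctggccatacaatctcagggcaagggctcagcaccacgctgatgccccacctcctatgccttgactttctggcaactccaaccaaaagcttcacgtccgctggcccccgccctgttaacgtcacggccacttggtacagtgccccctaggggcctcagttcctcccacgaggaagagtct

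Positions are counted from the start, with bases before it negative. Asns held TGATGAAA with its first base at -23, the only TGATGNAA match in the 10 windows. The looser form was also found in Psat1, as TGGTGCAA beginning at -136 from the first start, and in Phgdh, as TGCTGGAA beginning at -123. TGATGNAA occurs in 3.97% and TGNTGNAA in 14.8% of all 32851 windows of that length. CCAAT was in 6 of the 10 windows, against 37.4% of all windows, with 3 matches each in Psat1 and Mthfd2. CACGTG was in 0 of the 10, against 7.15% of all. The windows of Mthfd1l, of Shmt2 and of the second Psat1 start held none of these motifs. A match is a description of the sequence only.

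The pathway around these enzymes showed isolated changes. In 7 lists of neighbouring enzymes and regulators, 64 of 70 genes were listed, one of them under its older symbol Adss, and 59 were tested. Of these 11 rose and 5 fell, beside the 7.50% and 12.1% of all tested genes, and the median log2 fold change was -0.03 against -0.06 over all tested genes. The total of 16 was 7 without PBS 1 and 7 without PBS 3, and 6 of the 16 passed under every alternative: Cth, Mat2a, Mtrr, Atf4, Ddit3 and Atf5. Over all tested genes, 384 rose and 584 fell without PBS 1, and 362 rose and 508 fell without PBS 3.

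In the methionine cycle and transsulfuration list 3 of 8 tested genes rose and 0 fell, beside 7.50% and 12.1% of all tested genes. The L-proline values all lay above PBS for 3 of the 8 and all below for 3, against 16.0% and 24.0% of tested genes. Cth, cystathionine gamma-lyase, which yields cysteine, had the largest fold change, with 3.39, 2.72 and 3.28 FPKM in PBS and 12.0, 9.55 and 11.1 in L-proline (log2 fold change 1.52 ± 0.11, limma adjusted p = 0.000225). Mat2a, which makes S-adenosylmethionine, went from 40.0 ± 2.83 to 66.5 ± 4.95 FPKM (SD, n = 3), and Mtrr, methionine synthase reductase, from 3.05 ± 0.0576 to 5.05 ± 0.219. Methionine synthase itself, Mtr, had 2.22 ± 0.00726 and 1.67 ± 0.188 FPKM and did not pass (limma adjusted p = 0.0660). Ahcyl2, of the adenosylhomocysteinase family, was nearest to the threshold among the others, with -0.42 ± 0.12 on the log2 scale (limma adjusted p = 0.0506).

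In the folate uptake and turnover list, Mtfmt, the mitochondrial formyltransferase for initiator tRNA, had a log2 fold change of -0.26 ± 0.08 and did not pass (limma adjusted p = 0.0596). All 3 tested glycine cleavage genes, Gcsh, Dld and Amt, had log2 fold changes between 0.15 and 0.17 and did not pass.

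Purine synthesis, which consumes the formyl groups made by these enzymes, had 1 gene of 12 that rose and 1 that fell. Impdh2, of guanine nucleotide synthesis, went from 66.2 ± 4.51 to 86.3 ± 8.56 FPKM (limma adjusted p = 0.0255), and Pfas from 5.86 ± 0.519 to 4.27 ± 0.508 (limma adjusted p = 0.0362). The Pfas call was lost with no filter, with median-of-ratios scaling, with quantile normalization (limma adjusted p = 0.139) and without PBS 1, 2 or 3 or L-proline 1 or 3, and the Impdh2 call without PBS 1 or 3 or L-proline 2 or 3. Gmps and Adss2 did not pass, at -0.50 ± 0.19 and -0.34 ± 0.15 on the log2 scale.

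Serine use and mitochondrial serine transport had 1 gene of 7 that rose and 2 that fell. Sfxn3, of the sideroflexin family of mitochondrial serine carriers, fell from 37.8 ± 1.17 to 29.4 ± 1.26 FPKM (limma adjusted p = 0.0105, and 0.0639 without PBS 3). Its relative Sfxn1, the main mitochondrial serine carrier, had 18.1 ± 1.36 and 18.8 ± 2.55. Srr, serine racemase, fell and Sptlc2, a subunit of serine palmitoyltransferase, rose, at log2 fold changes of -0.47 ± 0.13 and 0.24 ± 0.06. Both calls were lost without any 1 of the PBS libraries and without L-proline 2, that of Srr also with no filter and that of Sptlc2 also without L-proline 3. Sptlc1, the partner subunit, did not pass at -0.31 ± 0.14.

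Among glutamine, glutamate and aspartate enzymes, 2 of 9 rose and 0 fell. Gpt2, mitochondrial alanine aminotransferase, went from 6.84 ± 0.311 to 9.53 ± 0.521 FPKM (limma adjusted p = 0.00958, and 0.0515 without PBS 1). Gpt, the cytosolic form, went from 3.75 ± 0.304 to 4.87 ± 0.125 (limma adjusted p = 0.0394), a call that was lost without any 1 of the 6 libraries, with no filter and with voom. Glul, which makes the glutamine that Asns uses, and Got1, the cytosolic aspartate aminotransferase, did not pass, at -0.21 ± 0.07 and 0.22 ± 0.07 on the log2 scale.

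Of 8 tested regulators, Atf4, Ddit3 and Atf5 rose and Myc fell. Atf4 was 110, 131 and 113 FPKM in PBS and 218, 212 and 239 in L-proline, so the groups were well apart (log2 fold change 0.92 ± 0.09, limma adjusted p = 0.000533). Ddit3, encoding the stress factor CHOP, had 12.2 ± 1.70 and 27.5 ± 2.64 FPKM, and Atf5 35.3 ± 4.88 and 99.1 ± 19.5. Myc, also known to drive serine and folate genes, went from 30.7 ± 0.963 to 24.6 ± 1.33 (limma adjusted p = 0.0212). That call was lost without PBS 1, 2 or 3, without L-proline 2 and with median-of-ratios scaling. Cebpg, Nfe2l2, Cebpb and Eif2ak4 did not pass, at 0.31 ± 0.11, 0.22 ± 0.13, 0.15 ± 0.10 and -0.46 ± 0.19 on the log2 scale. Mycn was not listed.

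**Figure D4:**
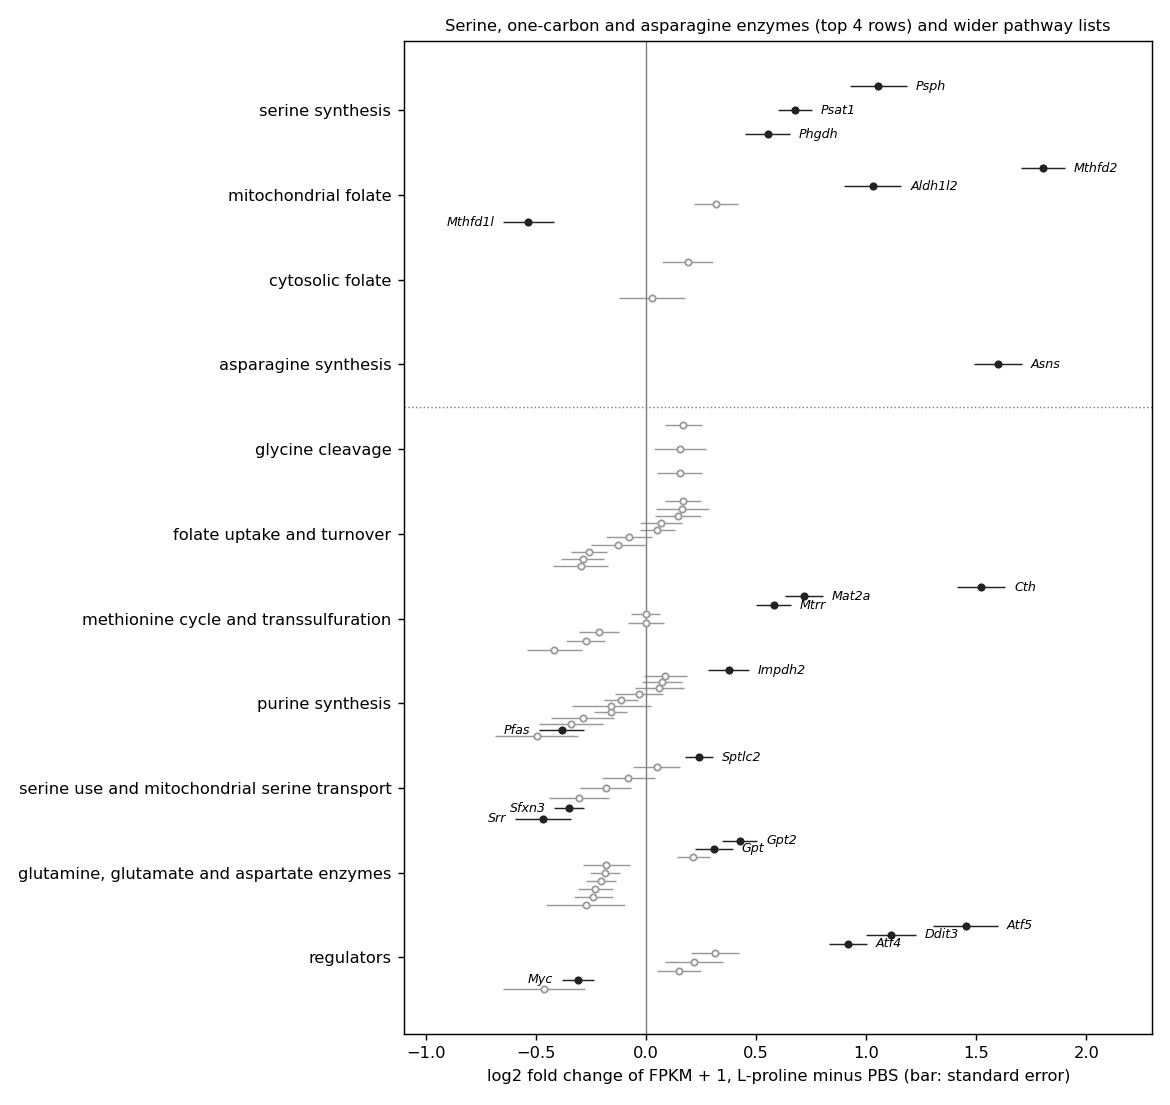
Log2 fold change of FPKM + 1 (L-proline minus PBS, bars for the standard error) of the 10 enzyme genes, above the dotted line, and of tested genes of the wider lists below it; filled and named points passed the limma threshold. Mthfd2 (1.80), Asns (1.60) and Cth (1.52) lie farthest right and Mthfd1l (-0.53) farthest left among named points.

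Some markers of several cell types moved with the groups and others did not. Among all tested genes 7.50% rose and 12.1% fell. Of 10 proliferating cell markers 6 fell and 0 rose, while Ccnb1, Pcna, Mcm2 and Mcm5 overlapped between groups and did not pass. The summed level over the 10 was 474 to 479 FPKM in PBS and 285 to 380 in L-proline. Mki67 went from 33.5, 16.6 and 24.1 FPKM to 14.2, 9.66 and 5.06, and none of the 10 markers was at 0. Of 6 tested fibroblast markers, the collagen genes Col1a1, Col1a2 and Col3a1 rose, at log2 fold changes of 0.33, 0.37 and 0.57, and the receptor gene Pdgfra fell, at -0.34. Dcn and Postn did not pass (limma adjusted p = 0.0589 and 0.231), and Tcf21 and Thy1 were not listed. The sum over the fibroblast markers was 2025 to 2074 FPKM in PBS and 2756 to 3124 in L-proline. Most of this sum was Col3a1, with means of 1226 and 1824 FPKM, and Col1a2, with 615 and 798, so it follows the collagen genes. Of 3 tested macrophage markers Cd68 rose, from 3.17 ± 0.536 to 5.19 ± 0.297 FPKM (SD, n = 3). Cd14 and Lyz2 overlapped between groups and did not pass (limma adjusted p = 0.583 and 0.723). Csf1r was at 0.101 to 0.274 FPKM and was not tested, and Adgre1 and Ptprc were not listed. The summed level over the macrophage markers overlapped, at 19.7 to 22.2 FPKM in PBS and 21.8 to 25.4 in L-proline. Of 6 tested pericyte and smooth muscle markers 0 rose and 0 fell by limma. Tagln, the 1 of them with an unadjusted p under 0.05, lay lower in every L-proline library. The sums over the list overlapped at 1168 to 1299 and 1051 to 1272 FPKM. Most of this sum was Acta2, with means of 850 and 826 FPKM, and Des, with 228 and 219. Myh11 and Rgs5 were close to 0 and were not tested. One-carbon genes are commonly high in dividing cells. Here 6 of the 10 enzyme genes rose and 1, Mthfd1l, fell with L-proline, where 6 of the 10 proliferating cell markers fell and 4 did not pass. The part of these markers in the changes of the 10 genes was not tested.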

How the data were processed

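Polyadenylated RNA labelled as left ventricle was sequenced as paired-end reads on a NovaSeq instrument, per the labels' protocols, in 3 PBS and 3 L-proline libraries, grouped and numbered from the sample titles. The authors deposited 1 table of FPKM values for 14408 gene symbols, per the file headers. HISAT2, HTSeq 0.13.5 and GRCm39 are named in the submitters' processing notes without a role. The selection of the listed genes is not stated in these sources, and each value depends on the gene model and on how much of the library a few abundant genes take.

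Whole fragments were recovered from the deposited FPKM values. Library totals, 34990473 to 37498030, were solved so that the 13 mitochondrially encoded genes came out whole within 0.01. With these totals, each gene was given the smallest length that made its fragments whole within 0.01 in all libraries. Such a length was found for all 14408 genes, and recovered lengths are therefore fitted values. For a 1 kb gene, a single fragment equals 0.0267 to 0.0286 FPKM and 3 fragments, the limit a count of 0 allows, 0.0800 to 0.0857 FPKM (counting error only).

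Differences were fitted with limma 3.58.1 in R 4.3.3 on log2(FPKM + 1) with a mean-variance trend, two-sided, over 10500 genes with a mean of at least 1 FPKM. Fold changes on this scale understate those of low genes. P-values were adjusted by Benjamini-Hochberg over all 10500 genes at a threshold of 0.05. Tested on simulated data for L-proline against PBS with 10500 genes, the fit found 50.0% of 50 genes changed 1.25-fold and 98.0% of 50 changed 1.5-fold, when every gene was given the median spread, with 4.40% of its calls false. The 10 genes and all lists were chosen with earlier results of these data known. Named genes are the 10 members, the 4 genes with the smallest unadjusted p of each neighbouring list (some of which are not reported here), all regulators, and the 5 genes nearest to Mthfd2 and to Asns; Aldh1l1, Sfxn1 and Mtr were added after their values were seen. The alternatives were other pseudocounts, filters and scalings, voom on recovered fragments, a block for replicate number, and leaving out each library.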

Additional observations from a re-analysis of the deposited data

How the results depend on the processing

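Over 13 alternatives, 6 of the 10 enzyme genes passed in every one: Phgdh, Psat1, Psph, Mthfd2, Aldh1l2 and Asns. The number past the threshold stayed within 1.5 times of 7 in all, and the number that fell, 1, was 0 without PBS 3. Shmt2 passed with median-of-ratios scaling (limma adjusted p = 0.0423), quantile normalization (0.0334), the replicate block (0.0223) and without L-proline 1 (0.0299). Mthfd1 passed in none, and Shmt1, left out by the filter at 5 FPKM, passed in none of 12; its fold change was -0.11 without PBS 1 and -0.07 without L-proline 2, and -0.11 to 0.13 over all libraries left out in turn.

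Leaving out 1 library gave 7 to 20 wider pathway genes past the threshold against 16, with 6 to 9 that rose against 11 and 0 to 11 that fell against 5. The number that fell was 3 with no filter, 3 with median-of-ratios scaling and 8 with the replicate block. Over all 10500 tested genes, 362 to 965 rose and 508 to 1797 fell when 1 library was left out. The folate difference of 0.55 was 0.29 for Shmt2 minus Shmt1, 1.61 for Mthfd2 minus Mthfd1, and 0.47 to 0.66 without 1 library. Same-numbered libraries of the groups correlated at 0.65, 0.42 and -0.35 in their deviations from the group means, so the numbers were not taken to pair them. With the block, 8 of the 10 genes and 18 of the wider genes passed. Over all tested genes the block gave 908 that rose and 1475 that fell, against 788 and 1268 without it. The cause of these changes was not tested. Counting error weighs most on genes of few fragments, and Shmt1, with 268 to 395 fragments per library, has the fewest of the 10. Its SD was 21.1% of the mean in PBS and 18.1% in L-proline. That of Psph, which has more fragments, was 21.0% in PBS. The part of depth in these spreads was not tested.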

Other observations

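Among all 10500 tested genes, those with profiles most like Mthfd2 over the 6 libraries, by the Euclidean distance between log2(FPKM + 1) values centred on each gene's mean, were Chac1 (distance 0.121), Dhx58 (0.217), Asns (0.257), Oasl2 (0.336) and Tor3a (0.375). Chac1 encodes an enzyme that breaks down glutathione. Dhx58 and Oasl2 are interferon-induced antiviral genes. Nearest to Asns were Tor3a (0.196), Hoatz (0.230), Mthfd2 (0.257), Atf5 (0.2995) and Dhx58 (0.320). Of the other enzyme genes, Psph ranked 61 and Aldh1l2 69 by distance to Mthfd2, Psat1 158 and Phgdh 261, and Mthfd1l 9910. The distance includes the difference between the groups, and 2056 of the tested genes passed its threshold, so closeness says nothing of shared function or control.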
